A study of Homo sapiens with 24 samples.

Results

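Collagens and laminins are the chains from which cells build fibrils, filaments and basement membranes. Collagen chains wind into a triple helix, and the kind of chain sets whether the helices pack into fibrils, form networks or decorate other fibrils. A laminin is a cross-shaped trimer of 1 alpha, 1 beta and 1 gamma chain that lies under epithelial cells and is bound by their integrins. The genes described here are those whose single symbol in the array's probe table reads COL, digits, A and digits, or LAMA, LAMB or LAMC and digits. The rule found 53 genes on 135 probe sets among 19775 genes on 41091 probe sets with a single symbol. Of these, 43 were collagen chain genes and 10 laminin chain genes. A filter on low values (log2 of at least 5 on at least 2 arrays) kept 48 genes on 101 probe sets, namely 38 collagen and all 10 laminin chain genes. COL15A1, COL24A1, COL3A1, COL6A6 and COL8A1 did not pass it on any probe set, and the highest log2 value of any of their probe sets was 4.93.

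HCT116, an established human colorectal cancer line, was treated for 72 h with compounds in dimethyl sulfoxide (DMSO) or with DMSO alone, and transcripts were read on Affymetrix HG-U133 Plus 2.0 microarrays. The labels give DMSO 4 arrays and each of 10 treated groups 2: decitabine (DAC) at 5 µM and 120 nM, azacytidine (Aza) at 1500 nM and 150 nM, and the prodrugs G668684 at 7 µM and 150 nM, G669043 at 1500 nM and 150 nM, and G669071 at a higher and a lower dose. The G669071 doses are not settled, because the sample titles gave 63 µM and 6 µM and the source names of the same samples 120 nM and 6 nM. DAC and Aza are cytidine analogues known to trap DNA methyltransferases, and the series sets out to profile inhibitors of DNMT1, the enzyme that copies DNA methylation onto new strands. The titles add the word ester to G668684, phos to G669071 and the prefix Aza to G669043, and no structure was taken from these words.

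Values are log2 of the deposited intensities. They are given with the arrays of a group in replicate order and the groups in the order of the doses named (the higher dose first where none is named). A level is set against no other gene's level. A change is the difference of 2 group means on the log2 scale with its standard error (SE) from limma. A gene was called at an adjusted p under 0.05 over 18055 genes. All 10 comparisons with vehicle share the same 4 DMSO arrays. These arrays formed pairs: replicates 1 and 2 correlated at 0.9967 over genes and replicates 3 and 4 at 0.9969, against 0.9904 to 0.9912 between the pairs. The gap between the pairs was largest for LAMB1 (0.69 higher in replicates 3 and 4), COL6A3 (-0.68), COL11A1 (-0.56), COL10A1 (-0.46) and COL13A1 (0.44), so values against each pair alone stand beside the results they touch. The labels do not say that replicates were separate cultures, so p-values cover only how far these samples scatter, possibly for technical reasons. As a check of the label, all 7 epithelial markers (EPCAM, CDH1, KRT8, KRT18, KRT19, CLDN4 and ELF3) passed the filter, and the log2 of their summed value was 14.94 to 15.02 in DMSO and 15.04 to 15.29 in the treated arrays. Of 8 fibroblast markers 6 passed it, with LUM and POSTN not kept, and the log2 of their summed value lay between 9.52 and 9.60 in DMSO and between 9.55 and 10.45 in the treated arrays.

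To show where DNA methylation could lie at these genes, the 250 bases before the start site are given for COL6A3, COL13A1, COL12A1 and LAMB3 (RefSeq, GRCh38.p14). These are the genes called with a change of at least 1 log2 unit or in at least 6 of the 10 comparisons with DMSO that have an entry in the promoter table. They are written 5′ to 3′ in the direction of transcription, with every CG dinucleotide, the site that DNMT1 methylates, in capitals. COL6A3 (chr2:237414165-237414414, minus strand) holds 3, COL13A1 (chr10:69801656-69801905, plus strand) 16, COL12A1 (chr6:75206054-75206303, minus strand) 21 and LAMB3 (chr1:209652426-209652675, minus strand, the first of 3 listed starts) 8.
COL6A3: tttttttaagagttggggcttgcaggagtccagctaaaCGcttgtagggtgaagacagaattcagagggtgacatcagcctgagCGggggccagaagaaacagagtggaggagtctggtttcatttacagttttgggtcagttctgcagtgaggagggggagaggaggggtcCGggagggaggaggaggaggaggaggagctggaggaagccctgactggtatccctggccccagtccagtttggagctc
COL13A1: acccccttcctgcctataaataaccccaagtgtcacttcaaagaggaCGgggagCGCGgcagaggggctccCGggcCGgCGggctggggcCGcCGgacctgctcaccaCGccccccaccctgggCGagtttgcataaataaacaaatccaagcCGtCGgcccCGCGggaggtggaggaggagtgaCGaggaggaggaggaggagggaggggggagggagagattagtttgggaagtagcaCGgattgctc
COL12A1: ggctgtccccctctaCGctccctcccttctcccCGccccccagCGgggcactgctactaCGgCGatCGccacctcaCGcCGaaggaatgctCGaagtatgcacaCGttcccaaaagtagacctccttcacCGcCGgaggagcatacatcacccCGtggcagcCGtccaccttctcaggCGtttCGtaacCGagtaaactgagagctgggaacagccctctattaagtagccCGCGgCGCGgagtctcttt
LAMB3: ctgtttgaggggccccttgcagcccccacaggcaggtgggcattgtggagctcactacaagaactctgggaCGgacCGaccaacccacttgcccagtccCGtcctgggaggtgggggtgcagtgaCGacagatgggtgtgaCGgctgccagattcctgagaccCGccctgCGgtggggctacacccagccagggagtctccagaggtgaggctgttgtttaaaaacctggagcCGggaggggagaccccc
A CG was present in 93.9% of the 35116 windows of this length in the table, with a median of 11. Entries existed for 39 of the 53 genes. At the first listed start, the 11 called genes with an entry held 3 to 37 CG, with a median of 16, and the 25 genes that were tested but not called held 1 to 40, with a median of 13, so the ranges overlapped almost entirely. COL6A3, the gene with the largest change below, had the fewest among the called genes at the first listed start, while a later listed start of COL21A1 held 2 and one of LAMB3 held 3. Methylation itself was not measured in these arrays.

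Most of the family did not pass the test, while a few chains moved by a large amount. Of the 48 tested genes, 15 were called in at least 1 of the 10 comparisons with DMSO, against 48.4% of all genes, and 33 were called in none. Against DMSO, 11 genes rose and 1 fell with DAC at 5 µM (all genes: 18% higher, 14.2% lower, 32.2% either way) and 7 rose with DAC at 120 nM (12.5% higher, 9.9% lower, 22.4% either way). With G669071, 9 rose and 1 fell at the higher dose (15.8%, 13.7% and 29.5%) and 6 rose at the lower dose (8.68%, 6.91% and 15.6%). G668684 raised 10 and lowered 1 at 7 µM (17.5%, 14.7% and 32.2%) and raised 6 and lowered 1 at 150 nM (10.7%, 10.4% and 21.1%). Aza at 1500 nM raised 3 and lowered 3 (8.13%, 9.18% and 17.3%), and at 150 nM raised 1 (1.03%, 0.46% and 1.49%). G669043 at 1500 nM raised 2 (5.88%, 3.25% and 9.12%). At 150 nM it gave no call by limma among the 48 genes (0.709%, 0.161% and 0.87%), where 14 genes had an unadjusted p under 0.05, against 3425 of all 18055. When DMSO replicates 1 and 2 alone were used, 19 were called, against 5084 of all genes. Some of these counts rested on 1 array. They became 4 for DAC at 120 nM without replicate 1, 6 for the higher dose of G669071 without replicate 1, 3 for its lower dose without either array, 7 for G668684 at 7 µM without replicate 2 and 4 for it at 150 nM without either array. The call for Aza at 150 nM, that of COL9A3, was lost without either Aza array. It was also lost without DMSO replicate 2 or 4, where another gene was called and the count stayed at 1. A call for G669043 at 1500 nM was lost without either of its arrays, and the count became 4 without DMSO replicate 3. For G669043 at 150 nM it became 2 without DMSO replicate 3 and 1 without DMSO replicate 4. The shares of the family that rose (22.9% with DAC at 5 µM, for instance) lay near those of all genes, and the median change of the 48 genes with DAC at 5 µM was 0.00, against -0.04 over all genes. In bulk RNA of this kind, fewer cells making a transcript and less transcript per cell cannot be told apart.

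**Figure D1:**
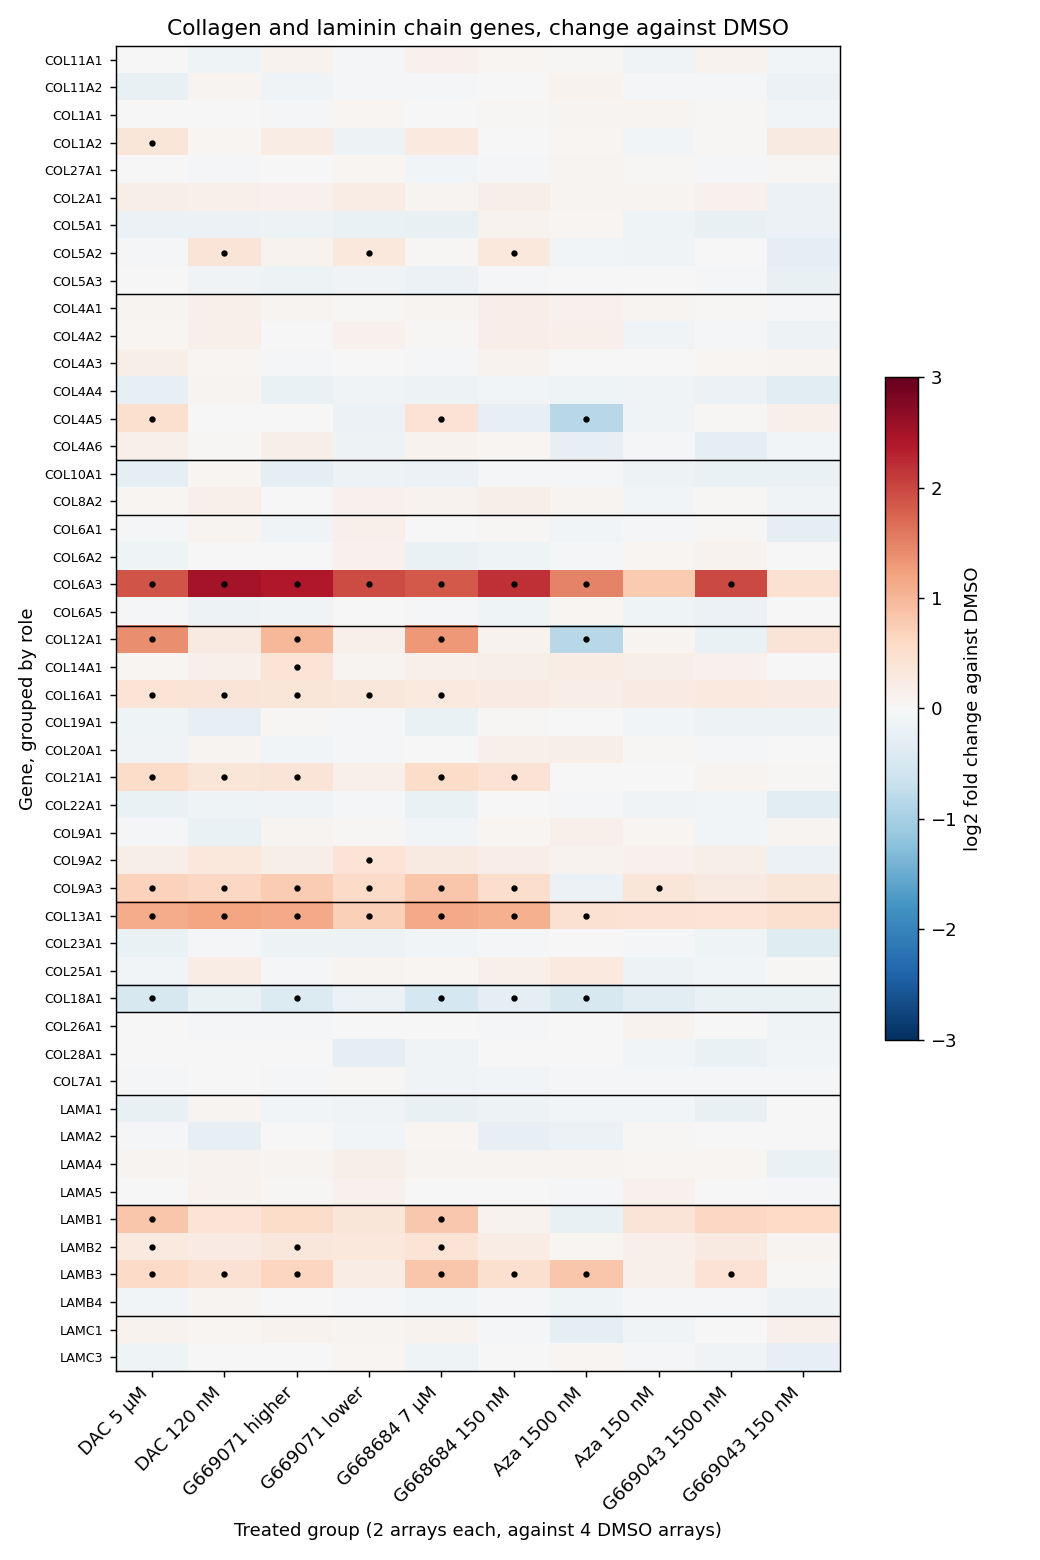
Log2 fold change against DMSO (colour, red higher and blue lower) of the 48 tested collagen and laminin chain genes (rows, split by role) in the 10 treated groups (columns, 2 arrays each against 4 DMSO arrays), with a dot where the gene was called at an adjusted p under 0.05. COL6A3 carries the deepest red, up to 2.50 with DAC at 120 nM, and most rows carry no dot.

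Collagen VI forms beaded microfilaments around cells, and its classical heterotrimer joins the chains of COL6A1, COL6A2 and COL6A3. COL6A3 rose in 8 of the 10 treated groups, by 1.49 to 2.50 log2 units, the largest changes of any gene of the family. Its 4 DMSO values were 6.25, 6.30, 5.95 and 5.25. With DAC the values were 7.70 and 7.96 at 5 µM and 8.45 and 8.42 at 120 nM, with G668684 7.50 and 8.04 at 7 µM and 8.16 and 8.10 at 150 nM, and with G669071 8.19 and 8.49 at the higher and 7.84 and 7.96 at the lower dose. Aza gave 7.51 and 7.34 at 1500 nM and 6.80 and 6.65 at 150 nM, and G669043 gave 7.81 and 8.03 at 1500 nM and 6.12 and 6.66 at 150 nM. Every treated array except replicate 1 of G669043 at 150 nM was above the highest DMSO array. The change was 1.89 ± 0.22 (SE, limma adjusted p = 8.8e-07) with DAC at 5 µM and 2.50 ± 0.22 (adjusted p = 5.1e-08), or 5.65-fold, at 120 nM. It was 2.40 and 1.96 at the higher and lower dose of G669071, and 1.83 and 2.19 at 7 µM and 150 nM of G668684. Aza at 1500 nM gave 1.49 (adjusted p = 7.1e-05) and G669043 at 1500 nM 1.98 (adjusted p = 3.8e-06). At 150 nM the differences of 0.79 with Aza (95% interval 0.33 to 1.24, adjusted p = 0.081) and 0.45 with G669043 (0.00 to 0.91, adjusted p = 0.27) did not pass the test. The DMSO pairs differed here, and the 8 calls stood against either pair alone: with DAC at 120 nM the change was 2.16 against replicates 1 and 2 and 2.84 against replicates 3 and 4.

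None of the other collagen VI chains was called on its representing probe set. COL6A1 had DMSO values of 8.24, 8.07, 7.95 and 7.88 and treated values of 8.01 and 7.97 with DAC at 5 µM, 8.12 and 8.10 with DAC at 120 nM, 7.95 and 7.90, then 8.30 and 8.08 with the higher and lower dose of G669071, and 8.05 and 7.99, then 8.06 and 8.07 with 7 µM and 150 nM of G668684. The values with 1500 nM and 150 nM were 7.92 and 8.0, then 7.98 and 7.99 for Aza and 8.16 and 7.97, then 7.71 and 7.83 for G669043. Its changes lay between -0.27 and 0.15, those of COL6A2 between -0.20 and 0.12 and those of COL6A5, a chain of a different collagen VI assembly, between -0.17 and 0.05. Of the 7 other kept probe sets of COL6A1, 213428_s_at was called higher in the lower dose groups of 3 compounds, by 0.43 with DAC at 120 nM, 0.41 with the lower dose of G669071 and 0.32 with G668684 at 150 nM, and 216904_at was called lower with DAC at 5 µM (-0.35), a call lost against DMSO replicates 1 and 2 alone (-0.29).

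**Figure D2:**
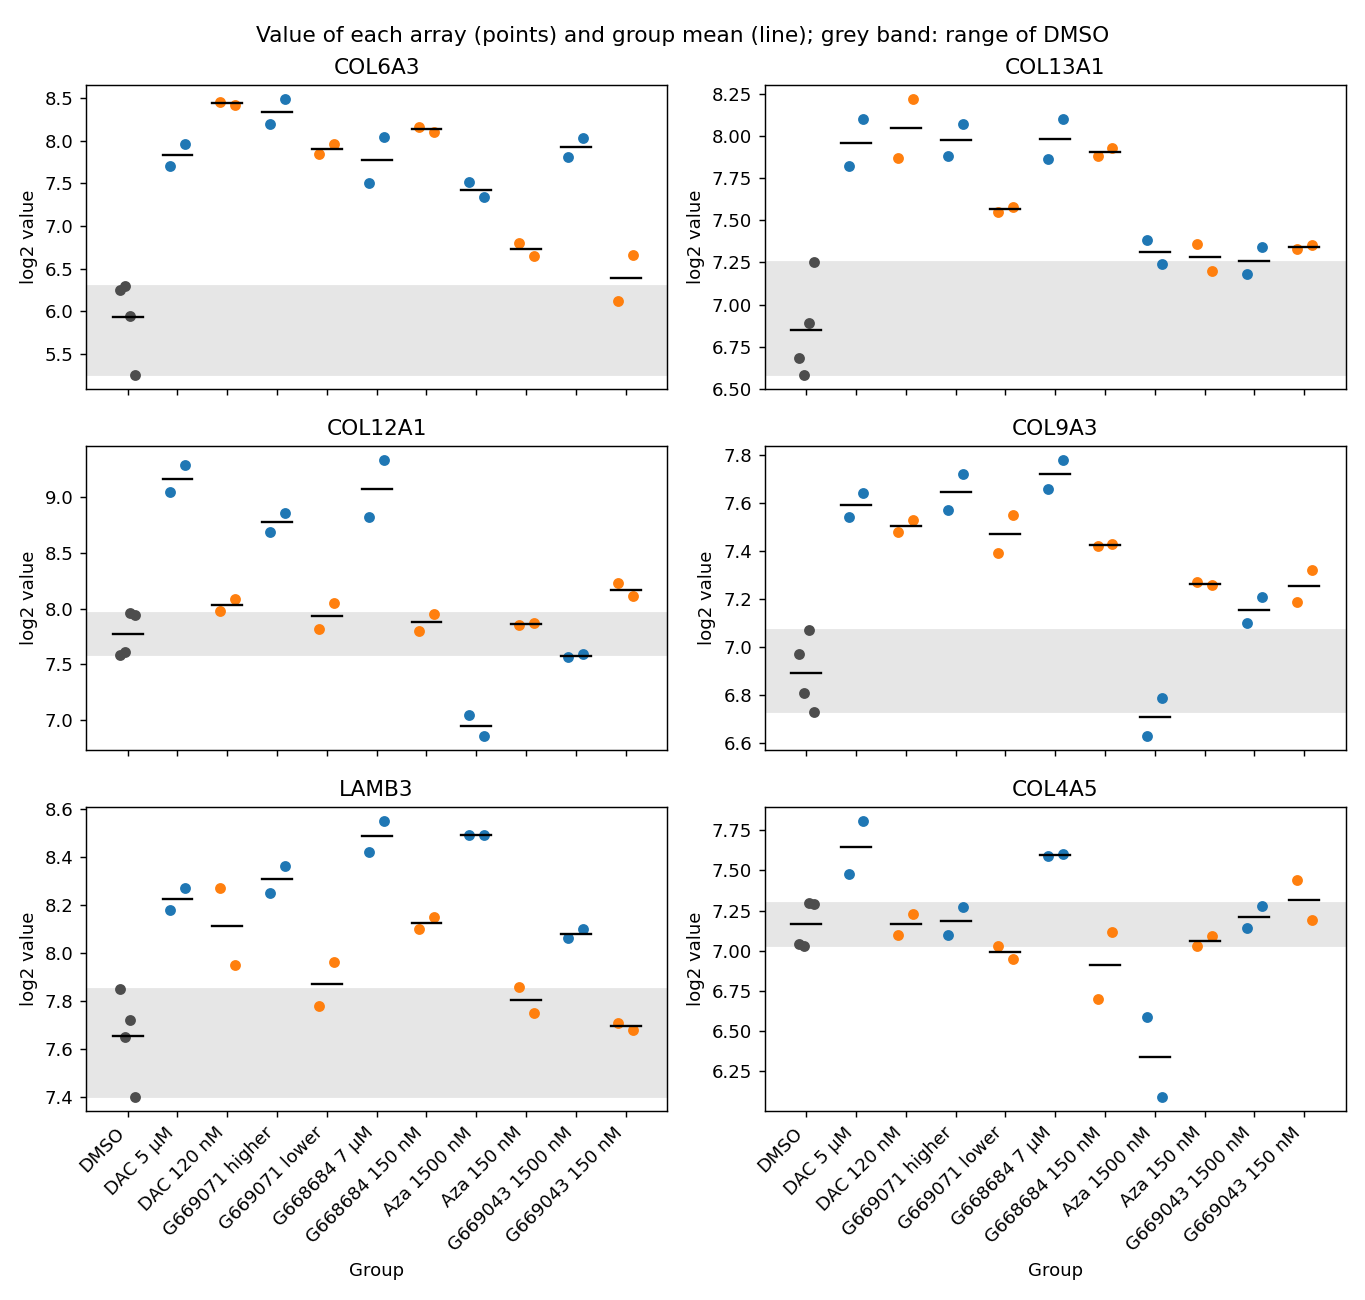
Log2 value of each array (points), group mean (line) and range of the 4 DMSO arrays (grey band) for 6 genes in the 11 groups, with grey points for DMSO, blue for the higher and orange for the lower dose of a compound. COL6A3 and COL13A1 stand above the band in the DAC, G669071 and G668684 groups at both doses, COL12A1 stands well above it in the higher dose groups of these compounds, and COL12A1 and COL4A5 lie below the band with Aza at 1500 nM.

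Among the collagens that span the plasma membrane, COL13A1 was called in 7 of the 10 comparisons and COL23A1 and COL25A1 in none. Collagen XIII is a single-pass membrane protein found at cell adhesions and at the neuromuscular junction. COL13A1 read 6.68, 6.58, 6.89 and 7.25 in DMSO. It read 7.82 and 8.10, then 7.87 and 8.22 with DAC at 5 µM and 120 nM, 7.88 and 8.07, then 7.55 and 7.58 with the higher and lower dose of G669071, and 7.86 and 8.10, then 7.88 and 7.93 with G668684 at 7 µM and 150 nM. The 12 arrays of these compounds were all above the 4 DMSO arrays. At 1500 nM and 150 nM, Aza gave 7.38 and 7.24, then 7.36 and 7.20, and G669043 gave 7.18 and 7.34, then 7.33 and 7.35, partly within the DMSO range. The change was 1.11 ± 0.14 with DAC at 5 µM (adjusted p = 3.9e-06), 1.19 at 120 nM, 1.13 and 0.71 at the higher and lower dose of G669071, and 1.13 and 1.06 with G668684 at 7 µM and 150 nM. With Aza at 1500 nM it was 0.46 (adjusted p = 0.031), and was called. The call was lost against DMSO replicates 3 and 4 alone (0.24, adjusted p = 0.18), and without DMSO replicate 1, DMSO replicate 2 or either Aza array. The other kept probe sets of the gene, 208535_x_at and 211809_x_at, were called in no comparison with DMSO, so the rise rests on 211343_s_at.

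Fibril-associated collagens with interrupted helices (FACIT) sit on the surface of fibrils and link them to other matrix. Of the 10 tested, 4 rose with DAC at 5 µM (all genes: 18%) and 3 at 120 nM (12.5%), 5 and 3 with the higher and lower dose of G669071 (15.8% and 8.68%), and 4 and 2 with G668684 at 7 µM and 150 nM (17.5% and 10.7%). With Aza 1 fell at 1500 nM (all genes: 9.18% lower) and 1 rose at 150 nM (1.03% higher). With G669043 none was called at 1500 nM or 150 nM (9.12% and 0.87% either way). The median change of the 10 genes was 0.12 with DAC at 5 µM and 0.27 with the higher dose of G669071, against medians of -0.04 and -0.03 over all genes.

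COL12A1, whose product coats collagen I fibrils, rose at the higher dose only in 3 compounds and fell with Aza. DMSO values were 7.58, 7.61, 7.96 and 7.94. The higher dose groups read 9.05 and 9.29 with DAC at 5 µM, 8.69 and 8.86 with G669071 and 8.82 and 9.34 with G668684 at 7 µM. The lower dose groups read 7.98 and 8.09 with DAC at 120 nM, 7.82 and 8.05 with G669071 and 7.80 and 7.95 with G668684 at 150 nM. Aza gave 7.04 and 6.85 at 1500 nM and 7.85 and 7.87 at 150 nM, and G669043 7.56 and 7.59, then 8.23 and 8.11. All 6 arrays of the first 3 groups lay above every other array, and the 2 arrays of Aza at 1500 nM lay below every other. Against DMSO the change was 1.40 ± 0.13 with DAC at 5 µM (adjusted p = 6.4e-08), 1.00 with the higher dose of G669071 (adjusted p = 5.8e-06), 1.31 with G668684 at 7 µM (adjusted p = 1.6e-07) and -0.83 with Aza at 1500 nM (adjusted p = 0.00017). At the lower doses of the first 3 compounds the differences of 0.26, 0.16 and 0.10 did not pass. The rise with DAC at 5 µM was seen by 3 of its 4 kept probe sets (0.90 to 1.40), while 234951_s_at gave -0.02. The fall with Aza at 1500 nM was called on 231766_s_at alone, and over the mean of the probe sets it was -0.34 (adjusted p = 0.052), the cause of the difference not being tested.

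COL9A3 encodes a chain of collagen IX, which coats collagen II fibrils in cartilage. Its DMSO values were 6.97, 6.81, 7.07 and 6.73. The values were 7.54 and 7.64, then 7.48 and 7.53 with DAC at 5 µM and 120 nM, 7.57 and 7.72, then 7.39 and 7.55 with the higher and lower dose of G669071, and 7.66 and 7.78, then 7.42 and 7.43 with G668684 at 7 µM and 150 nM. At 1500 nM and 150 nM, Aza read 6.63 and 6.79, then 7.27 and 7.26, and G669043 7.10 and 7.21, then 7.19 and 7.32. All treated arrays but those of Aza at 1500 nM exceeded the highest DMSO array. The gene rose by 0.53 to 0.82 in the 6 groups of DAC, G669071 and G668684, with 0.82 ± 0.09 at 7 µM of G668684 (adjusted p = 5.2e-07). With Aza at 150 nM the change of 0.37 had an adjusted p of 0.047, the sole call of the family in that comparison, and it was lost without DMSO replicate 2 or 4 or either Aza array. Its partner chains COL9A1 and COL9A2 had 0 calls and 1 call, the latter with the lower dose of G669071 (0.40, adjusted p = 0.028), lost without either treated array and 0.26 without DMSO replicate 4.

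Smaller rises were called for COL16A1 and COL21A1, minor collagens of fibril surfaces, each in 5 comparisons. COL16A1 rose by 0.29 to 0.41 in the groups of DAC, in both groups of G669071 and with G668684 at 7 µM. COL21A1 rose by 0.37 to 0.56 in the groups of DAC, in both groups of G668684 and with the higher dose of G669071. COL21A1 had a DMSO mean of 4.68, under the filter value, so its fold has no settled size. Each call of COL16A1 was lost without 1 treated array: replicate 1 of either DAC dose or of G668684 at 7 µM (where the change became 0.18), and either array of either G669071 dose. COL21A1 kept its call with DAC at 5 µM without any single array, and lost the others without DAC at 120 nM replicate 1 (0.14), either array of the higher dose of G669071, G668684 at 7 µM replicate 2 or either array at 150 nM.

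COL14A1, a FACIT collagen of tendon and skin, depended on the probe set. The probe set that stands for the gene by the rule of highest mean, 216866_s_at, was called with the higher dose of G669071 alone (0.41, adjusted p = 0.0081), where its arrays read 7.10 and 6.51 beside 6.44, 6.50, 6.32 and 6.33 in DMSO, and the change was 0.11 without replicate 1 (adjusted p = 0.52) and 0.70 without replicate 2. By contrast 212865_s_at read 4.98, 5.60, 5.10 and 5.38 in DMSO, 6.90 and 7.07, then 6.42 and 6.93 with DAC at 5 µM and 120 nM, 7.01 and 6.91, then 6.38 and 6.23 with the higher and lower dose of G669071, and 6.70 and 7.19, then 6.26 and 6.43 with G668684 at 7 µM and 150 nM. Aza gave 5.73 and 5.37 at 1500 nM and 5.27 and 5.11 at 150 nM, and G669043 6.17 and 6.28, then 5.13 and 5.31. The 12 arrays of DAC, G669071 and G668684 and the 2 of G669043 at 1500 nM stood above all DMSO arrays. Its change was 1.72 ± 0.17 with DAC at 5 µM (adjusted p over probe sets = 9.5e-08), 1.70 with the higher dose of G669071, 1.68 with G668684 at 7 µM and 0.96 with G669043 at 1500 nM. A further probe set, 228750_at, rose by 0.59 to 0.78 in the groups of DAC, G669071 and G668684, and 216865_at was not called.

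Fibrillar chains form the load-bearing fibrils of connective tissue, and 9 were tested. Of these, COL1A2 alone rose with DAC at 5 µM (0.37, adjusted p = 0.028, all genes: 18% higher). COL5A2 alone rose with DAC at 120 nM (0.39, all genes: 12.5%), the lower dose of G669071 (0.32, all genes: 8.68%) and G668684 at 150 nM (0.32, all genes: 10.7%). Each of these calls was lost when a single array was left out: either DAC array or DMSO replicate 2 for COL1A2, and DAC replicate 2, either G669071 array, either G668684 array or DMSO replicate 3 for COL5A2. Another COL1A2 probe set, 202404_s_at, had a DMSO mean of 4.96, under the filter value. It was not called with DAC at 5 µM (0.19) but was with the higher dose of G669071 (0.31, adjusted p over probe sets = 0.032). That call was lost against DMSO replicates 3 and 4 alone (0.29, adjusted p = 0.09). COL5A2 encodes a chain of collagen V, which nucleates collagen I fibrils, and its calls fell in lower dose groups, with -0.03, 0.10 and 0.04 at the higher doses of the same compounds.

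COL1A1, the main chain of collagen I, also gave a result that turned on the probe set. Its representing probe set 217430_x_at, of a design class that can bind several transcripts, read 10.21, 10.18, 9.75 and 9.77 in DMSO, 9.99 and 9.95, then 10.08 and 9.86 with DAC at 5 µM and 120 nM, 10.04 and 9.85, then 10.03 and 10.04 with the higher and lower dose of G669071, and 10.01 and 9.94, then 10 and 10.03 with G668684 at 7 µM and 150 nM. With Aza it read 10 and 10.12 at 1500 nM and 10.12 and 9.99 at 150 nM, and with G669043 10.03 and 10.01, then 9.87 and 9.92. All treated arrays lay within the DMSO range, and the changes were between -0.08 and 0.08 with no call. A different probe set, 1556499_s_at, also of a class that can bind several transcripts, read 6.42, 6.84, 7.43 and 7.06 in DMSO, 8.25 and 8.42, then 7.56 and 8.61 with DAC at 5 µM and 120 nM, 8.59 and 8.47, then 8.15 and 7.96 with the higher and lower dose of G669071, and 8.05 and 8.38, then 7.78 and 8.39 with G668684 at 7 µM and 150 nM. Aza gave 6.86 and 6.18, then 7.18 and 7.39 at 1500 nM and 150 nM, and G669043 7.56 and 8.20, then 7.64 and 7.49. On it every array of DAC, G669071 and G668684 exceeded the 4 DMSO arrays, and those of Aza did not. The change was 1.40 ± 0.27 with DAC at 5 µM (adjusted p over probe sets = 0.00043), 1.15 at 120 nM, 1.59 and 1.12 with G669071 and 1.28 and 1.15 with G668684. These 6 calls stood against DMSO replicates 3 and 4 alone (0.81 to 1.28). The call with G669043 at 1500 nM (0.94, adjusted p = 0.039) did not (0.63, adjusted p = 0.17). The remaining kept probe sets, 202310_s_at and 202312_s_at, were not called.

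**Figure D3:**
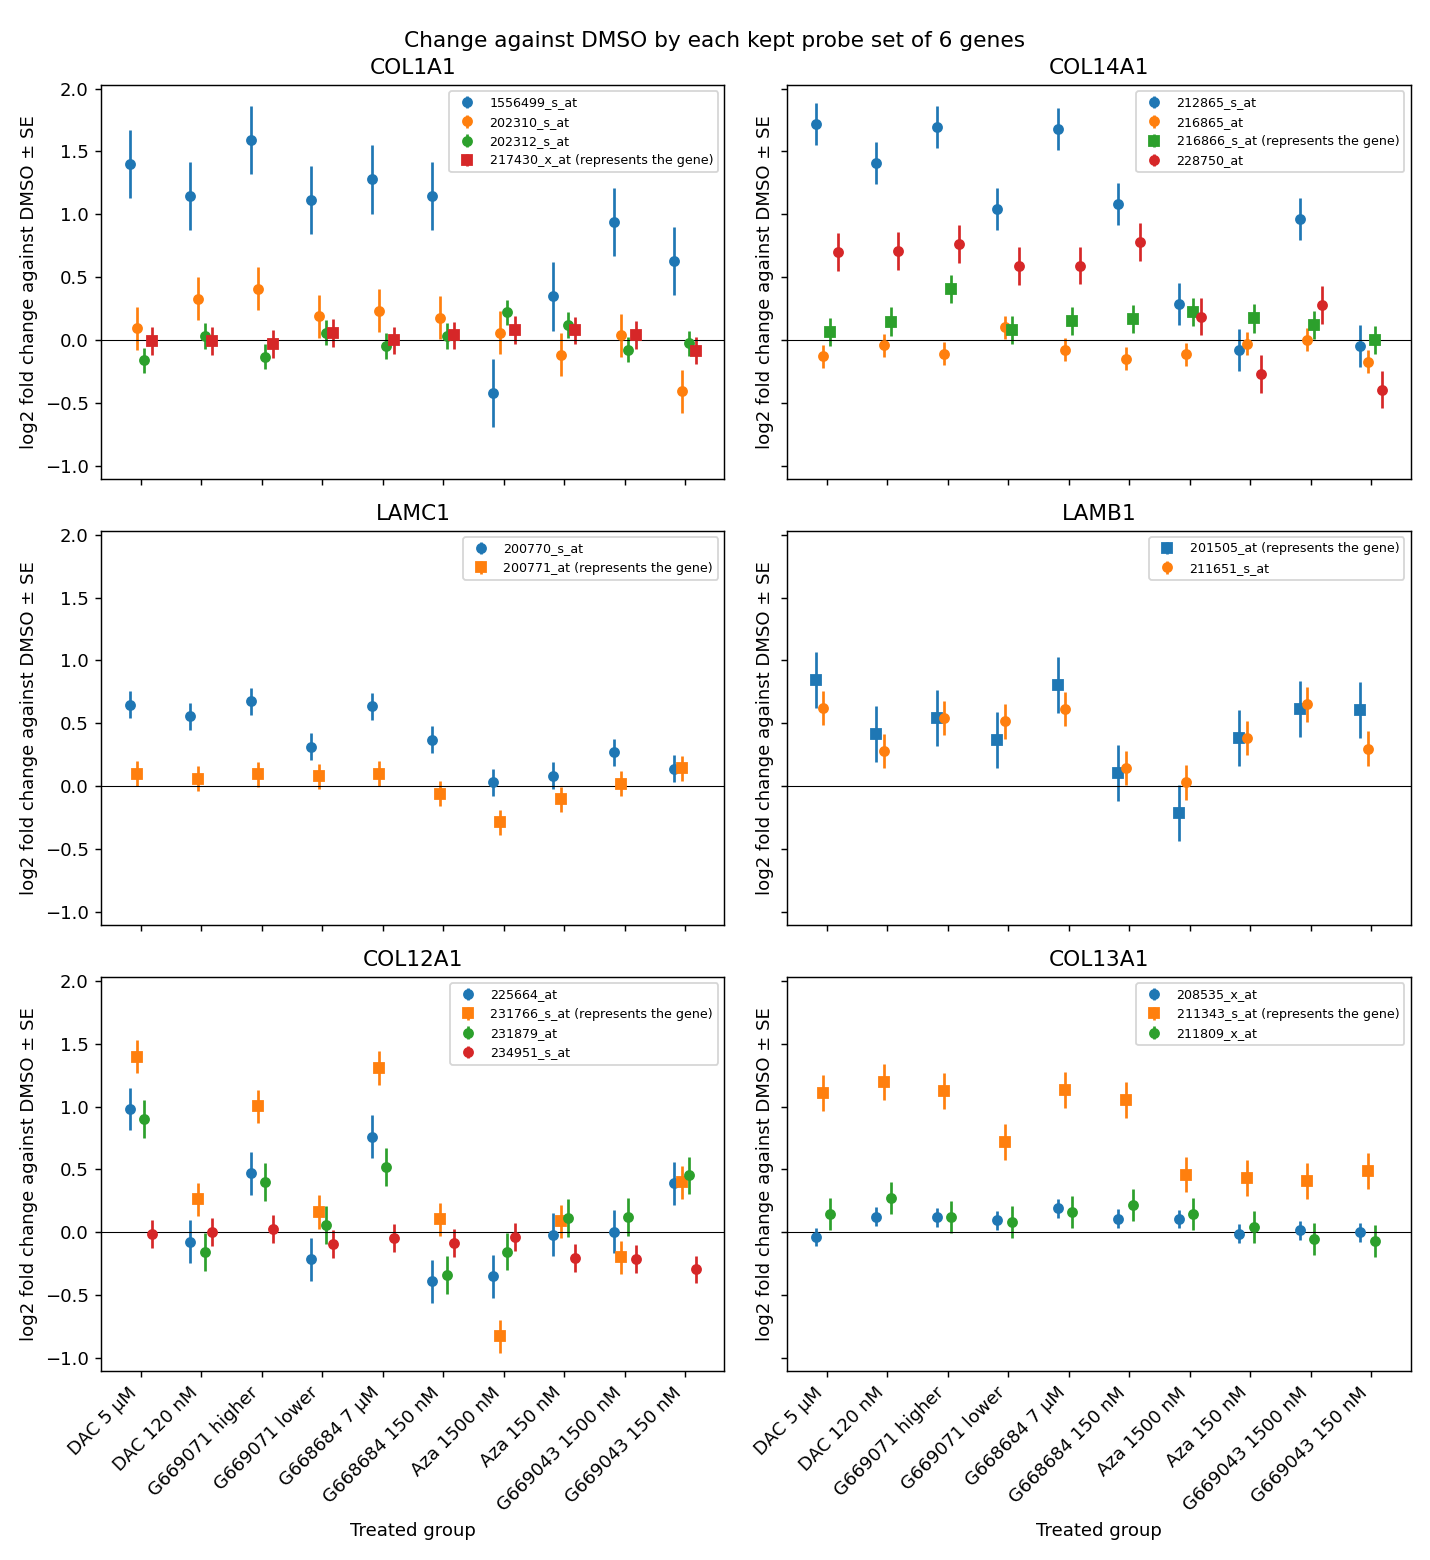
Log2 fold change against DMSO with its SE (bars) for every kept probe set of 6 genes in the 10 treated groups, with squares for the probe set that represents the gene and circles for the others. In COL1A1, COL14A1 and LAMC1 a circle lies above the square in the DAC, G669071 and G668684 groups, in LAMB1 both probe sets go the same way in 9 of the 10 groups, and in COL13A1 the square lies above both circles in the DAC, G669071 and G668684 groups.

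Disagreement between probe sets was seen in further genes. Of the 53 kept probe sets that do not represent their gene, 16 were called in at least 1 comparison with DMSO (30.2%, against 40.3% of such probe sets over all genes), in 13 genes. For 8 of these genes the representing probe set was not called, so 23 of the 48 genes had at least 1 called probe set. These probe sets were picked after their values were seen, and a gene with more probe sets has more chances of a call. Some of them, such as 212865_s_at of COL14A1, 200770_s_at of LAMC1 and 211651_s_at of LAMB1, are of a class that can bind several transcripts.

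Collagen IV is the network collagen of basement membranes, and its genes lie as head-to-head pairs, with 127 bases between the starts of COL4A2 and COL4A1, 419 between those of COL4A3 and COL4A4, and 380 between those of COL4A5 and COL4A6 (RefSeq, GRCh38.p14). Of the 6 genes COL4A5 alone was called on its representing probe set. Its values were 7.04, 7.03, 7.30 and 7.29 in DMSO. They were 7.48 and 7.81, then 7.10 and 7.23 with DAC at 5 µM and 120 nM, 7.10 and 7.27, then 7.03 and 6.95 with the higher and lower dose of G669071, and 7.59 and 7.60, then 6.70 and 7.12 with G668684 at 7 µM and 150 nM. With Aza they were 6.59 and 6.09 at 1500 nM and 7.03 and 7.09 at 150 nM, and with G669043 7.14 and 7.28, then 7.44 and 7.19. The higher dose arrays of DAC and G668684 lay above the DMSO range and those of Aza at 1500 nM below it. The gene rose by 0.48 ± 0.14 with DAC at 5 µM (adjusted p = 0.01) and by 0.43 with G668684 at 7 µM (adjusted p = 0.02), and it fell by 0.82 with Aza at 1500 nM (adjusted p = 0.00026). Neither rise was called against DMSO replicates 3 and 4 alone (0.35 and 0.30). That with DAC was lost without DAC replicate 2 (0.32, adjusted p = 0.24) and that with G668684 without either treated array or DMSO replicate 2. The other kept probe set of the gene, 234387_at, was called in none and gave -0.06 with Aza at 1500 nM.

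On representing probe sets, the head-to-head partner COL4A6 changed by -0.28 to 0.17 over the 10 comparisons without a call, COL4A1 by -0.04 to 0.20, COL4A2 by -0.15 to 0.20, COL4A3 by -0.05 to 0.17 and COL4A4 by -0.32 to 0.07. A second probe set of COL4A2, 211964_at, was called higher with DAC at 120 nM (0.71), the higher dose of G669071 (0.61) and both doses of G668684 (0.49 and 0.62). Against DMSO replicates 1 and 2 alone these were 0.51, 0.40, 0.28 and 0.42, the G668684 values no longer called (adjusted p = 0.15 and 0.061). Of the other probe sets of COL4A3 and COL4A4, 229779_at of COL4A4 was called lower with G668684 at 7 µM (-0.50, adjusted p = 0.009), and 216367_at of COL4A3 with the higher dose of G669071 (-0.30, adjusted p = 0.016), the latter lost against DMSO replicates 1 and 2 alone (adjusted p = 0.052).

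COL18A1, whose product is a basement membrane proteoglycan and the source of the fragment endostatin, was the one gene that fell in several comparisons. It read 7.73, 7.63, 7.61 and 7.48 in DMSO, 7.12 and 7.13, then 7.38 and 7.44 with DAC at 5 µM and 120 nM, 7.19 and 7.22, then 7.41 and 7.46 with the higher and lower dose of G669071, and 6.98 and 7.19, then 7.32 and 7.34 with G668684 at 7 µM and 150 nM. Aza gave 7.28 and 6.97 at 1500 nM and 7.31 and 7.30 at 150 nM, and G669043 7.40 and 7.43, then 7.40 and 7.42. Every treated array lay below the lowest DMSO array. The gene fell by 0.49 ± 0.08 with DAC at 5 µM (adjusted p = 0.00012), by 0.41 with the higher dose of G669071, by 0.53 with G668684 at 7 µM, by 0.28 at 150 nM and by 0.49 with Aza at 1500 nM. The call at 150 nM of G668684 was lost without either of its arrays and against DMSO replicates 3 and 4 alone (-0.21). The other 4 stood without any single array. The second probe set, 209082_s_at, fell in the same 3 higher dose groups of DAC, G669071 and G668684, and that of G669071 was not called against DMSO replicates 3 and 4 alone (-0.28).

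The short-chain collagens and the remaining collagens gave no call on their representing probe sets. COL8A2, a short-chain network collagen, read 6.54, 6.60, 6.44 and 6.52 in DMSO, 6.66 and 6.49, then 6.78 and 6.56 with DAC at 5 µM and 120 nM, 6.53 and 6.55, then 6.70 and 6.61 with the higher and lower dose of G669071, 6.66 and 6.60, then 6.71 and 6.68 with G668684 at 7 µM and 150 nM, 6.45 and 6.77, then 6.38 and 6.50 with Aza and 6.60 and 6.51, then 6.41 and 6.45 with G669043. Its second probe set 221900_at was called higher with DAC at 120 nM (0.34), the lower dose of G669071 (0.44) and G668684 at 150 nM (0.38), the first lost against DMSO replicates 3 and 4 alone (0.29, adjusted p = 0.055). COL7A1, the anchoring fibril collagen of epithelia, read 7.63, 7.59, 7.47 and 7.52 in DMSO, 7.45 and 7.55, then 7.50 and 7.57 with DAC, 7.54 and 7.43, then 7.47 and 7.70 with G669071, 7.41 and 7.50, then 7.60 and 7.33 with G668684, 7.56 and 7.48, then 7.48 and 7.54 with Aza and 7.59 and 7.40, then 7.48 and 7.57 with G669043, the higher dose first in each. For COL8A2, both arrays of the lower dose of G669071 and of G668684 at 150 nM stood above the DMSO range without a call. The treated groups of COL7A1 all overlapped the DMSO range, and its changes lay between -0.10 and 0.03. COL10A1, COL26A1 and COL28A1 were not called either.

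Among the laminins the calls on representing probe sets fell on beta chains. Of 4 tested, 3 rose with DAC at 5 µM (all genes: 18%), 2 with the higher dose of G669071 (15.8%) and 3 with G668684 at 7 µM (17.5%). With DAC at 120 nM (12.5%), G668684 at 150 nM (10.7%), Aza at 1500 nM (8.13%) and G669043 at 1500 nM (5.88%), 1 rose in each. LAMB3 encodes the beta chain of laminin-332, the laminin of hemidesmosomes. LAMB3 values were 7.85, 7.65, 7.72 and 7.40 in DMSO. With DAC they were 8.18 and 8.27 at 5 µM and 8.27 and 7.95 at 120 nM, with G669071 8.25 and 8.36 at the higher and 7.78 and 7.96 at the lower dose, and with G668684 8.42 and 8.55 at 7 µM and 8.10 and 8.15 at 150 nM. Aza gave 8.49 and 8.49 at 1500 nM and 7.86 and 7.75 at 150 nM, and G669043 8.06 and 8.10, then 7.71 and 7.68. All arrays of the higher dose groups and of the lower dose of DAC and G668684 stood above the DMSO range. The change was 0.83 ± 0.10 with G668684 at 7 µM (adjusted p = 2.6e-06), 0.84 with Aza at 1500 nM (adjusted p = 1.3e-05), 0.65 with the higher dose of G669071, 0.57 and 0.46 with DAC at 5 µM and 120 nM, 0.47 with G668684 at 150 nM and 0.42 with G669043 at 1500 nM. The call with DAC at 120 nM was lost without its replicate 1 (0.30, adjusted p = 0.13) and that with G669043 without either of its arrays.

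LAMB1, the beta chain of most embryonic and many basement membrane laminins, read 7.35, 7.42, 8.13 and 8.01 in DMSO, with the second pair above the first. The values were 8.44 and 8.70, then 7.86 and 8.42 with DAC at 5 µM and 120 nM, 8.30 and 8.24, then 8.09 and 8.10 with the higher and lower dose of G669071, and 8.39 and 8.67, then 7.44 and 8.23 with G668684 at 7 µM and 150 nM. With Aza they were 7.76 and 7.27 at 1500 nM and 8.15 and 8.07 at 150 nM, and with G669043 8.18 and 8.50, then 8.40 and 8.27. The calls were 0.84 ± 0.22 with DAC at 5 µM (adjusted p = 0.0059) and 0.80 with G668684 at 7 µM (adjusted p = 0.0084). Against DMSO replicates 3 and 4 alone they were 0.50 (adjusted p = 0.081) and 0.46 (adjusted p = 0.11). Each was also lost without the treated replicate 2. Its second probe set, 211651_s_at, with less of a gap between the DMSO pairs, rose by 0.63 with DAC at 5 µM, 0.54 and 0.52 with the higher and lower dose of G669071, 0.62 with G668684 at 7 µM and 0.65 with G669043 at 1500 nM. The call with the lower dose of G669071 was lost against DMSO replicates 3 and 4 alone (0.42, adjusted p = 0.059). LAMB2 rose by 0.29 with DAC at 5 µM, 0.33 with the higher dose of G669071 and 0.40 with G668684 at 7 µM. These calls were lost without DAC replicate 2 (0.19) or DMSO replicate 1 or 4 (0.18 without the latter), without either G669071 array and without G668684 replicate 2. LAMB4 was not called.

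No alpha or gamma chain was called on its representing probe set. LAMA2, the alpha chain of muscle laminin, read 8.18, 8.34, 8.34 and 8.27 in DMSO, and with the higher dose first 8.16 and 8.34, then 8.04 and 8.01 with DAC, 8.25 and 8.31, then 8.16 and 8.22 with G669071, 8.17 and 8.49, then 8.12 and 7.94 with G668684, 8.26 and 7.97, then 8.34 and 8.30 with Aza and 8.27 and 8.25, then 8.30 and 8.23 with G669043. The changes of LAMA1, LAMA2, LAMA4 and LAMA5 lay between -0.26 and 0.18 in the 10 comparisons. LAMC1, the gamma chain shared by most laminins, read 9.34, 9.34, 9.42 and 9.48 in DMSO, and in the same order 9.42 and 9.57, then 9.39 and 9.52 with DAC, 9.44 and 9.54, then 9.38 and 9.57 with G669071, 9.33 and 9.66, then 9.26 and 9.41 with G668684, 9.18 and 9.04, then 9.27 and 9.31 with Aza and 9.25 and 9.58, then 9.52 and 9.56 with G669043. Its changes lay between -0.29 and 0.15, with Aza at 1500 nM the lowest (adjusted p = 0.054). The second LAMC1 probe set, 200770_s_at, gave another picture: 8.63, 8.65, 8.78 and 8.54 in DMSO, 9.14 and 9.46, then 9.25 and 9.16 with DAC, 9.30 and 9.35, then 8.91 and 9.02 with G669071, 9.08 and 9.49, then 8.96 and 9.08 with G668684, 8.79 and 8.57, then 8.72 and 8.75 with Aza and 8.89 and 8.95, then 8.85 and 8.73 with G669043. All arrays of DAC, G669071 and G668684 stood above its DMSO range, and the Aza groups overlapped it. It rose by 0.65 ± 0.11 with DAC at 5 µM (adjusted p over probe sets = 6.8e-05), 0.55 at 120 nM, 0.67 with the higher dose of G669071 and 0.63 and 0.37 with G668684. Each of these was called against either DMSO pair alone. LAMC3 was not called. LAMA2 had a second called probe set, 205116_at, lower with Aza at 1500 nM (-0.28, adjusted p = 0.027), a call lost against DMSO replicates 1 and 2 alone (-0.26, adjusted p = 0.1).

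The 2 doses of each compound were then compared directly. COL12A1 was called in all 5 comparisons, and in opposite directions: the higher dose stood above the lower by 1.13 ± 0.15 for DAC (adjusted p = 3.8e-05), 0.84 for G669071 (adjusted p = 0.0011) and 1.21 for G668684 (adjusted p = 2.6e-05), and the higher dose stood below the lower for Aza, with a difference of -0.91 (adjusted p = 0.001), and for G669043, with -0.59 (adjusted p = 0.033). The last call was lost when any single array of the pair of groups was left out. COL4A5 was higher at the higher dose of DAC (0.48, adjusted p = 0.048) and G668684 (0.68, adjusted p = 0.0065) and lower at that of Aza (-0.72, adjusted p = 0.0091). Each of these was lost without 1 array: DAC at 5 µM replicate 2 or either array at 120 nM, G668684 at 150 nM replicate 1, and Aza at 1500 nM replicate 2 (-0.47) or either array at 150 nM. The DAC difference of COL4A5, close to the threshold, was also lost when the filter on low values was dropped or the arrays were normalized again. LAMB3 was higher at the higher dose of Aza (0.69, adjusted p = 0.0015) and of G669071 (0.44, adjusted p = 0.025, lost without any one of the 4 arrays).

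COL6A3 was called between the doses of G669043, by 1.53 ± 0.25 (adjusted p = 0.0011), with the higher dose above. The other 4 dose differences did not pass: -0.60 for DAC (95% interval -1.13 to -0.08, adjusted p = 0.12), -0.36 for G668684 (-0.89 to 0.17, adjusted p = 0.43), 0.70 for Aza (0.17 to 1.23, adjusted p = 0.12) and 0.44 for G669071 (-0.09 to 0.97, adjusted p = 0.35). COL9A3 was lower at the higher dose of Aza (-0.56, adjusted p = 0.0031), and COL5A2 at that of DAC (-0.42, adjusted p = 0.014, lost without DAC at 5 µM replicate 1 or DAC at 120 nM replicate 2). The Aza difference of COL12A1 was not called over the mean of its probe sets (-0.34). In all, 3 genes were called for DAC (all genes: 14.7%), 2 for G669071 (9.35%), 2 for G668684 (11.6%), 4 for Aza (5.79%) and 2 for G669043 (3.87%). The counts became 1 for G669071 without replicate 1 of the higher or either array of the lower dose, for G668684 without replicate 1 at 150 nM and for G669043 without any one array.

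**Figure D4:**
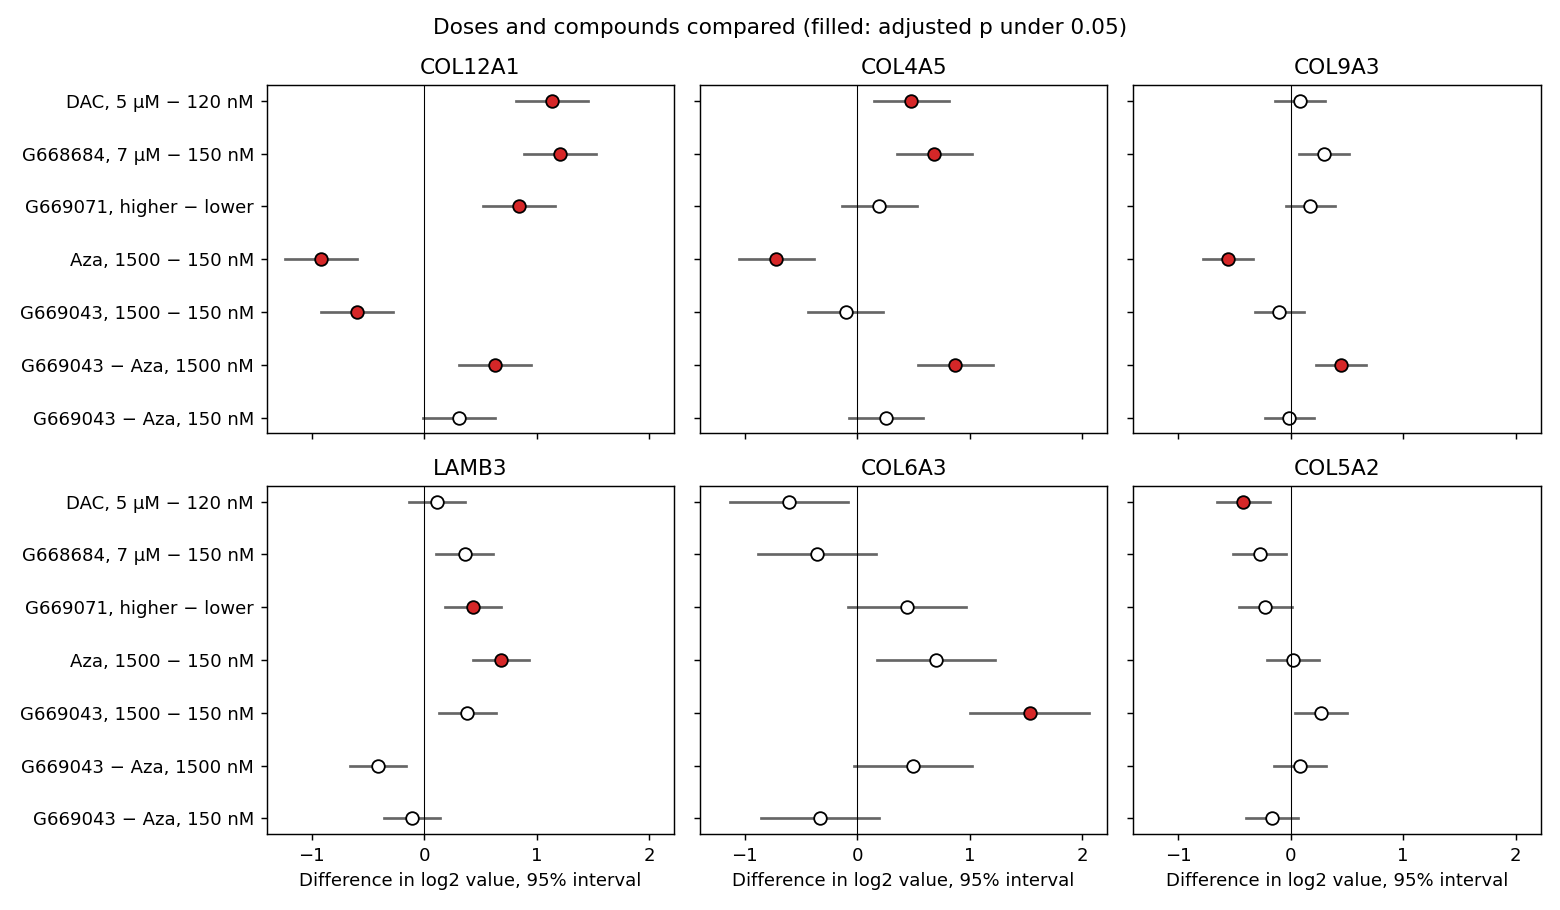
Difference in log2 value (x axis, points) with its 95% interval (lines) between the higher and lower dose of each compound and between G669043 and Aza at the same dose, for 6 genes, with filled points where the adjusted p was under 0.05. COL12A1 points lie right of 0 for DAC, G668684 and G669071 and left of it for both 1500 nM against 150 nM comparisons.

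Aza and G669043 were the compounds given at the same doses, and both pairs of groups were compared. At 1500 nM, 3 of the 48 genes were called, all higher with G669043 (all genes: 2.13%). COL4A5 differed by 0.87 ± 0.16 (adjusted p = 0.0068), COL12A1 by 0.63 ± 0.15 (adjusted p = 0.034) and COL9A3 by 0.45 ± 0.11 (adjusted p = 0.03), and in each both G669043 arrays stood above both Aza arrays. These calls rest on single arrays: COL12A1 and COL9A3 were lost without any one of the 4 arrays, and COL4A5 without Aza replicate 2 (0.62, adjusted p = 0.18) or G669043 replicate 2 (0.80, adjusted p = 0.14). COL6A3 differed by 0.49 (95% interval -0.03 to 1.02) and LAMB3 by -0.41 (-0.66 to -0.16, adjusted p = 0.086), short of a call. At 150 nM limma called no gene of the family (all genes: 0.0665%), with 5 at an unadjusted p under 0.05. There the difference was -0.33 (-0.86 to 0.19) for COL6A3, 0.06 (-0.29 to 0.41) for COL13A1 and -0.01 (-0.23 to 0.21) for COL9A3, so this comparison does not show that the compounds act alike. The dose effects of the 2 compounds were compared in an interaction test, which called 0 of the 48 genes and 81 of all 18055.

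The doses of DAC and G668684 differed, so their values stand side by side without a test. COL6A3 changed by 1.89 with DAC at 5 µM and 1.83 with G668684 at 7 µM, COL12A1 by 1.40 and 1.31, COL13A1 by 1.11 and 1.13, COL9A3 by 0.70 and 0.82, LAMB1 by 0.84 and 0.80, LAMB3 by 0.57 and 0.83, and COL18A1 by -0.49 and -0.53. At 120 nM of DAC and 150 nM of G668684, COL6A3 changed by 2.50 and 2.19, COL12A1 by 0.26 and 0.10, COL13A1 by 1.19 and 1.06, COL9A3 by 0.61 and 0.53, LAMB1 by 0.41 and 0.11, LAMB3 by 0.46 and 0.47, COL18A1 by -0.20 and -0.28 and COL5A2 by 0.39 and 0.32.

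Genes that make, modify or bind these chains were read from 5 lists. Over all genes, 18% rose and 14.2% fell with DAC at 5 µM, 12.5% and 9.9% with DAC at 120 nM, and 8.13% and 9.18% with Aza at 1500 nM. The counts of these short lists are to be read against those shares. Of 17 tested enzymes and chaperones that modify collagen in the endoplasmic reticulum, 3 rose and 3 fell with DAC at 5 µM and 7 rose with DAC at 120 nM. P4HA1 and P4HA2, subunits of prolyl 4-hydroxylase, rose by 0.76 and 0.61 with DAC at 5 µM, and P4HA2 was called in 9 of the 10 comparisons, with 0.50 for Aza at 1500 nM and 0.46 for G669043 at 1500 nM. CRTAP, a part of the prolyl 3-hydroxylase complex, fell by 0.39 with DAC at 5 µM and by 0.68 with the higher dose of G669071. PLOD2, a lysyl hydroxylase, fell by 0.66 with Aza at 1500 nM.

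Of 15 enzymes of procollagen processing and crosslinking, 4 rose and 1 fell with DAC at 5 µM. TGM2, a transglutaminase, rose by 1.31 there and by 0.37 with Aza at 1500 nM, LOXL2, a lysyl oxidase, by 0.56 and by 0.71 with the higher dose of G669071, and PCOLCE2, an enhancer of procollagen cleavage, by 1.07. PCOLCE2 was not called at the lower doses (0.03 with DAC at 120 nM). Of 14 receptors, 3 rose and none fell with DAC at 5 µM. ITGA2, the alpha chain of a collagen-binding integrin, rose by 1.59 with DAC at 5 µM, 1.55 with the higher dose of G669071 and 1.47 with G668684 at 7 µM, and by 1.01 and 0.65 at the lower doses of DAC and G668684.

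Of 18 other basement membrane proteins, 4 rose and 2 fell with DAC at 5 µM and 2 rose and 4 fell with Aza at 1500 nM. SPARC, a collagen-binding matricellular protein, rose by 3.56 ± 0.21 with DAC at 5 µM (adjusted p = 7.5e-11), 4.13 at 120 nM, 2.61 with G669043 at 1500 nM and 1.46 with Aza at 1500 nM. NPNT (nephronectin, an integrin ligand) fell by 0.94 with DAC at 5 µM and by 1.20 at 120 nM, and FRAS1 fell by 0.72 with Aza at 1500 nM, while EGFLAM (pikachurin) rose by 0.47 with DAC at 5 µM. Of 15 matrix proteases and inhibitors, 3 rose and 1 fell with DAC at 5 µM. MMP1, an interstitial collagenase, rose by 1.80 with DAC at 5 µM and 2.12 with G668684 at 7 µM, from a DMSO mean of 4.06 that lies under the filter value, and the inhibitor TIMP1 rose by 0.92 and 1.00. TIMP2 rose with DAC at 120 nM (0.81), and its difference of 0.14 at 5 µM was not called.

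Markers of matrix-producing cells were set beside these values. Among the 6 tested fibroblast markers ACTA2, smooth muscle actin, rose in 8 comparisons with DMSO, with 2.04 with DAC at 5 µM, 1.83 with G668684 at 7 µM, 1.37 with the higher dose of G669071 and 0.46 with DAC at 120 nM. DCN fell with G669043 at 150 nM (-0.41), and PDGFRA, PDGFRB, THY1 and FAP were not called. The defining markers LUM and POSTN did not pass the filter. Of the 7 epithelial markers, KRT19 (0.85), CDH1 (0.48) and KRT18 (0.25) rose and CLDN4 (-0.75) fell with DAC at 5 µM. With Aza at 1500 nM, KRT19 (0.41) and KRT8 (0.25) rose and CDH1 (-0.66) and CLDN4 (-0.47) fell. The part of other cell types in the changes of the collagen genes was not tested.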

How the data were processed

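RNA of 24 HCT116 samples was hybridized to 1 array each, with 4 DMSO samples and 2 in each of 10 treated groups. The deposited values are linear probe set intensities, which the authors made by RMA with version 1.1 of Affymetrix Expression Console, as the submitters' processing notes name it. RMA corrects the background, quantile normalizes and summarizes the probes. Of a genome build, the sources used here give none.

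Log2 of the deposited intensity was taken. Of 54675 probe sets, 62 controls, 1801 with several gene symbols and 11721 that the probe gene table does not list were left out, and probe sets with a log2 value of at least 5 on at least 2 arrays were kept. The kept probe set with the highest mean stands for a gene. All 53 symbols matched RefSeq. One limma fit (3.58.1, R 4.3.3; group means, eBayes with an intensity trend, 13 residual and 6.14 prior degrees of freedom) gave 17 comparisons, each with Benjamini-Hochberg adjustment over 18055 genes and a threshold of 0.05, 2-sided. Intervals are 95% intervals. For probe sets that do not represent their gene, p-values were adjusted over all kept probe sets. The script was tested on simulated data. Python 3.11.15 with pandas 2.3.3 read the tables and matplotlib 3.10.9 drew the plots. Precision is limited by how few arrays each group has.

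The genes and the lists were chosen with earlier results of these data known. Values of every array are given for genes of the family called with a change of at least 1 log2 unit, or in at least 6 of the 10 comparisons with DMSO, and for the gene of highest mean in each role. Of the other lists, up to 4 called genes with the largest changes are named. The further probe sets were chosen after their values were seen. Alternatives changed the filter, the choice of probe set, the normalization, the trend, the groups in the fit and the DMSO arrays, and left out each array in turn.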

Additional observations from a re-analysis of the deposited data

Results flagged for a closer look

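COL4A4 had 1 DMSO array apart from the others: replicate 1 read 6.92 against 6.68, 6.70 and 6.71, a gap of 0.875 of the range, above Dixon's 95% limit for 4 samples. Chance flags about 1 in 20 groups.

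At 1500 nM, G669043 and Aza differed, by limma on the difference itself, in COL12A1 (0.63 ± 0.15 SE, adjusted p = 0.034), COL4A5 (0.87 ± 0.16 SE, adjusted p = 0.0068) and COL9A3 (0.45 ± 0.11 SE, adjusted p = 0.03), each higher with G669043 in 2 of 2 arrays. Each call was lost without at least 1 of the 4 arrays.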

How the results depend on the processing

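Of 78 calls of a gene in a comparison, 39 stood under every alternative that gave them a value, among them the 8 of COL6A3 against DMSO. The counts of called genes stayed within 1.5 times in 173 cases and moved further in 90. Where no cause is named below, the cause was not tested.

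Counts of the family against DMSO, in the order the settings are named, moved as follows. Whether they moved more than the counts of all genes was not tested. With DAC at 5 µM the count of 12 was 5 without multi-transcript probe sets, those able to bind more than 1 transcript. All kept probe sets of COL13A1, COL18A1, COL21A1, COL9A3 and LAMB2 are of this kind. These genes leave the test under this setting, which lowers the counts and gives their calls no value. With DAC at 120 nM the count of 7 was 12 over the mean of the probe sets, 4 without those probe sets, 13 with each probe set by itself, 3 with only the 2 groups in the fit, 11 against DMSO replicates 1 and 2 and 12 against replicates 3 and 4. Over the whole array this comparison gave 4039 calls in the main fit, 3994 over the mean and 2993 without those probe sets. It gave 7004 with each probe set by itself, 1576 with only the 2 groups, and 4516 and 5357 against the DMSO pairs. With the higher dose of G669071 the count of 10 was 4 without those probe sets, 16 with each by itself and 16 against DMSO replicates 1 and 2, and with the lower dose the count of 6 was 11 with each by itself, 3 with only the 2 groups and 13 against DMSO replicates 3 and 4. With G668684 at 7 µM the count of 11 was 5 without those probe sets and 17 against DMSO replicates 1 and 2, and at 150 nM the count of 7 was 13 over the mean, 3 without those probe sets, 13 with each by itself, 4 with only the 2 groups and 11 against DMSO replicates 3 and 4. With Aza at 1500 nM the count of 6 was 3 without those probe sets. With Aza at 150 nM the count of 1 was 0 without the filter, without those probe sets, with centred arrays, with each by itself and with only the 2 groups, 2 after quantile normalization and 3 against either DMSO pair. With G669043 at 1500 nM the count of 2 was 4 over the mean, 5 with each by itself, 1 with only the 2 groups and 5 against either DMSO pair, and at 150 nM the count of 0 was 1 with centred arrays and 19 against DMSO replicates 1 and 2.

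Between doses, the count for DAC was 5 with each probe set by itself, for G669071 4 with each by itself and 9 with only the 2 groups, for G668684 1 without those probe sets, for Aza 2 over the mean, 1 without those probe sets and 7 with only the 2 groups, and for G669043 1 without those probe sets or with centred arrays and 4 with only the 2 groups. Between G669043 and Aza at 1500 nM it was 1 over the mean, 0 without those probe sets, 5 with each by itself and 6 with only the 2 groups, and at 150 nM 2 with only the 2 groups. Over the whole array, the comparison of the Aza doses gave 1045 calls in the main fit and 935 over the mean. It gave 705 without those probe sets and 2788 with only the 2 groups.

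Without the multi-transcript probe sets, 6 values turned sign: COL14A1 with the higher dose of G669071 (-0.11), COL1A2 with DAC at 5 µM (-0.19), and COL4A5 with DAC at 5 µM (-0.14), with G668684 at 7 µM (-0.055), between the Aza doses (0.14) and between G669043 and Aza at 1500 nM (-0.045). Another probe set then stands for the gene.

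Leaving out 1 array gave counts against DMSO of 8 to 13 for DAC at 5 µM, 4 to 8 at 120 nM, 6 to 12 and 3 to 7 for the higher and lower dose of G669071, 7 to 12 and 4 to 8 for G668684 at 7 µM and 150 nM, 5 to 6 and 0 to 1 for Aza at 1500 nM and 150 nM, and 1 to 4 and 0 to 2 for G669043. Between doses they were 2 to 2 for DAC, 1 to 2 for G669071, 1 to 3 for G668684, 3 to 4 for Aza and 1 to 1 for G669043, and between G669043 and Aza 0 to 1 at 1500 nM and 0 to 0 at 150 nM.

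Correlations of the deviations of same-numbered arrays ran from -0.587 to 0.622, so pairing by replicate number was not settled. Against DMSO, numbers 1 and 2 took opposite signs in each comparison, for example 0.622 and -0.587 with DAC at 120 nM. The 2 arrays of a treated group deviate from their mean by equal and opposite amounts. DMSO replicates 1 and 2 share the gap between the DMSO pairs. Opposite signs can therefore arise whatever the pairing and do not bear on it. Between treated groups the correlations ran from -0.2 to 0.296. Whether arrays of different groups shared a batch was not tested. A fit with the replicate number as a block, which leaves DMSO replicates 3 and 4 without a partner, gave counts of 13 for DAC at 120 nM, 16 for the higher dose of G669071, 18 for G668684 at 7 µM, 5 for Aza at 150 nM, and 6 and 19 for G669043 at 1500 nM and 150 nM. Over the whole array the block gave 4701 for DAC at 120 nM, 7322 for G668684 at 7 µM and 658 for Aza at 150 nM. For G669043 at 1500 nM and 150 nM it gave 3121 and 5380. Without the block these were 4039, 5809, 269, 1647 and 157. In the block between doses the counts of the family were 6 for DAC, 5 for G669071, 5 for G668684 and 6 for G669043, and between G669043 and Aza at 1500 nM 5. A block with crossed numbers, chosen after seeing the data, gave 5 for the G669043 doses and 5 between G669043 and Aza at 1500 nM.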
